A study of Mus musculus with 30 samples.

Results

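Isg15, Uba7, Ube2l6, Herc6 and Usp18 encode the modifier and the enzymes of ISGylation, and their RNA was followed across clones of J774A.1, a mouse macrophage-like cell line. These 5 genes were taken by symbol from a table of 54146 genes, whether or not they changed, and all 5 passed the filter on low counts in every comparison. The libraries came from 3 wild-type (WT) clones, WT1, WT2 and WT3, and from 2 knockout clones, KO1 and KO2. In both KO clones, CRISPR editing had removed B2_Mm2.Dicer1, a SINE B2 element in the first intron of Dicer1, from both alleles. The WT clones also grew out of single cells but were not electroporated, and in KO against WT electroporation and the deletion cannot be told apart. Each clone is a single line. Each clone was untreated or treated with 100 ng/mL mouse interferon-gamma (IFNG) for 4 h, and 3 polyA RNA libraries were made for each of the 10 combinations (30 libraries). The sources do not say that the 3 libraries of a group came from separate cultures, and p-values over libraries measure the spread between these samples, which may be technical.

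Isg15 is a ubiquitin-like protein that interferon induces. It is joined to other proteins by the same kind of relay that attaches ubiquitin. Uba7 activates it (the E1 step), Ube2l6 carries it (E2), and in mouse Herc6 transfers it to target proteins (E3). Usp18 removes it again, and Usp18 also binds the interferon receptor chain Ifnar2 and dampens signaling by type I interferon. In macrophages the system is known as part of the antiviral and antibacterial response.

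The 5′ flanks of Isg15, Ube2l6 and Herc6 are shown so that those of genes that rose together can be read side by side. The tables place Isg15 (ENSMUSG00000035692.6) on the minus strand of chromosome 4 at 156199424 to 156200818 (mm10), Ube2l6 (ENSMUSG00000027078.14) on the plus strand of chromosome 2 at 84798828 to 84810335 and Herc6 (ENSMUSG00000029798.11) on the plus strand of chromosome 6 at 57581000 to 57664632. Uba7 (ENSMUSG00000032596.14) lies on the plus strand of chromosome 9 at 107975505 to 107984060, and Usp18 (ENSMUSG00000030107.10) on the plus strand of chromosome 6 at 121245906 to 121270917. The sequences below are the 250 bases upstream of the RefSeq start (GRCm38.p6, read 5′ to 3′ on the strand of the gene), and capitals mark matches to an interferon-stimulated response element (ISRE), searched as GAAANNGAAA on both strands.
Isg15, chr4:156200819-156201068, minus strand: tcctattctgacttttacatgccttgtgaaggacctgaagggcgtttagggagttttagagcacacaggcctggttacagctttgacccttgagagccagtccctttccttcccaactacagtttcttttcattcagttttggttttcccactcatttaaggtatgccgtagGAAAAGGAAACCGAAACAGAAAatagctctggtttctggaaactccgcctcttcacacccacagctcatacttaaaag
Ube2l6, chr2:84798578-84798827, plus strand: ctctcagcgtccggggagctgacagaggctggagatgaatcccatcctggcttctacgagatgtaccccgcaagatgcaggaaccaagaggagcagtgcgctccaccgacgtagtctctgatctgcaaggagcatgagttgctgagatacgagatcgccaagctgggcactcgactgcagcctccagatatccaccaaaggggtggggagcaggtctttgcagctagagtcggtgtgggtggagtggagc
Herc6, chr6:57580742-57580991, plus strand: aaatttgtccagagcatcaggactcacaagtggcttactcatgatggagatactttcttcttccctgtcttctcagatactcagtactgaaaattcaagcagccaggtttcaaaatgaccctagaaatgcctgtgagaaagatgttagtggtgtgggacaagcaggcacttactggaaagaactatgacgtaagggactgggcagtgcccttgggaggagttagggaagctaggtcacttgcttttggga

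In Isg15, 3 matches overlapped one another, beginning at positions -78, -72 and -66 from the start. The windows of Ube2l6, Herc6 and Uba7 held no match to these letters, which says only that the letters are not in these bases. The Uba7 window reaches into the transcribed part of the gene and is not printed, and Usp18 is named only. A second motif, the gamma-activated site (GAS, searched as TTCNNNGAA, which reads the same on both strands), had no match in the 4 windows. Of all 32851 windows, 2.98% held the ISRE letters and 7.02% the GAS letters. Among the 441 windows of genes that rose after IFNG by a log2 fold change (log2FC) of at least 1 in WT cells, 14.3% held the ISRE letters and 11.3% the GAS letters. Among the windows of all genes tested there, the shares were 2.83% and 5.83%.

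Library depth was between 15566122 and 37992642 counted fragments. All 9 macrophage markers examined, among them Csf1r and Cd68, were above 1 CPM (counts scaled to a fixed library total) in every library. Of 16 markers of other cell types, 3 passed 1 CPM in some library, namely Pdgfra, Pecam1 and Cdh5. Cdh5 did so in every library, at 1.07 to 2.18 CPM. Dicer1, which holds the deleted element, had a mean of 119 ± 11.3 CPM (SD, n = 9) in untreated WT libraries and 88.03 ± 18.2 CPM (n = 6) in untreated KO libraries. The lower KO mean came mostly from KO1, at 71.5 ± 1.30 CPM (n = 3), whereas KO2 was at 105 ± 3.65 CPM, near WT1 at 105 ± 7.21 CPM. After IFNG, Dicer1 stood at 152 ± 13.2 CPM in WT and at 87.3 ± 14.1 CPM in KO libraries, without overlap. The deletion removes intron sequence, which the exon counts do not cover.

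The first question was how strongly each gene responded to IFNG and whether it did so in every clone. All 5 genes rose after IFNG in all 5 clones (edgeR's quasi-likelihood test with Benjamini-Hochberg adjustment over all genes). The genes that rose made up 11.8% of all tested genes in WT1, 17.4% in WT2, 18.6% in WT3, 16.2% in KO1 and 13.9% in KO2. The response was larger for Isg15 and Usp18 than for the 3 conjugating enzymes in each clone.

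Isg15, the modifier, was sparsely counted in untreated cells, with 13 to 39 counts per library, and reached 122 to 323 counts after IFNG. In WT1, the untreated libraries held 0.947, 1.31 and 0.882 CPM and the IFNG libraries 8.63, 7.72 and 6.99 CPM. In WT2, the values were 1.56, 1.39 and 1.51 CPM untreated and 12.2, 14.6 and 14.3 CPM after IFNG. In WT3, they were 1.24, 0.728 and 1.11 CPM and then 11.2, 10.8 and 8.40 CPM. WT2 was the highest clone in both conditions. In KO1, Isg15 went from 0.787, 0.671 and 1.00 CPM to 7.72, 8.50 and 8.13 CPM. In KO2, it went from 0.729, 0.768 and 0.437 CPM to 8.71, 8.46 and 6.09 CPM. Every IFNG library was above every untreated library. The log2FC was 3.16 (SE 0.18, adjusted p = 1.7e-11) over the WT clones, an 8.94-fold increase, and 3.45 (SE 0.15, adjusted p = 1.3e-10) over the KO clones, a 10.9-fold increase. Of all tested genes, 14.8% rose in pooled WT and 15.8% in pooled KO. By log2FC, Isg15 was placed 114 of 13423 tested genes in WT and 111 of 13851 in KO.

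Usp18, the enzyme that takes Isg15 off its targets, had the other large response. In WT1, its untreated libraries held 5.00, 4.02 and 3.598 CPM and its IFNG libraries 20.5, 21.2 and 22.4 CPM. In WT2, the values were 5.42, 5.40 and 5.91 CPM and then 34.7, 31.8 and 34.3 CPM. In WT3, they were 3.66, 3.21 and 2.89 CPM and then 24.6, 26.96 and 24.6 CPM. The WT clones were separate from one another after IFNG, with WT2 highest. In KO1, Usp18 went from 2.40, 3.04 and 2.16 CPM to 15.7, 16.9 and 13.99 CPM. In KO2, it went from 1.42, 1.83 and 1.88 CPM to 15.4, 15.2 and 16.0 CPM. All KO libraries were below all WT libraries after IFNG, while the untreated ranges of KO1 and WT3 overlapped. The IFNG log2FC was 2.63 (SE 0.15, adjusted p = 2.7e-11) over the WT clones and 2.89 (SE 0.13, adjusted p = 1.7e-10) over the KO clones, or 6.20-fold and 7.40-fold.

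Herc6, the mouse E3 ligase for Isg15, started from a higher level and rose less. In untreated libraries it lay between 20.9 and 25.8 CPM in WT (median 22.6) and between 16.0 and 18.9 CPM in KO (median 17.3), without overlap. After IFNG it lay between 50.1 and 72.5 CPM in WT (median 56.3) and between 37.2 and 51.3 CPM in KO (median 42.9), and these ranges overlapped slightly. The log2FC after IFNG was 1.35 (SE 0.06) in WT and 1.32 (SE 0.08) in KO clones. Herc6 shares 1269 exon bases with Gm45193 on the same strand, and the counting gave fragments in shared bases to both genes.

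Ube2l6, the E2 enzyme, rose from between 18.6 and 24.995 CPM (median 21.3) to between 39.1 and 59.4 CPM (median 55.3) in WT, and from between 18.01 and 26.6 CPM (median 21.9) to between 47.99 and 59.96 CPM (median 52.2) in KO libraries. Its log2FC was 1.25 (SE 0.09) in WT and 1.28 (SE 0.09) in KO clones. The WT1 libraries stood low after IFNG, at 40.3 ± 1.08 CPM (SD, n = 3), and the other clones were between 49.4 ± 1.53 CPM in KO2 and 58.4 ± 1.37 CPM in WT3.

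Uba7, the E1 enzyme, showed the smallest response of the 5 genes in each pooled comparison. It lay between 15.2 and 19.8 CPM (median 18.1) in untreated WT and between 32.996 and 39.4 CPM (median 38.2) in treated WT libraries. In KO libraries it went from between 13.5 and 16.8 CPM (median 16.3) to between 24.3 and 36.996 CPM (median 32.4). The log2FC was 1.05 (SE 0.06) in WT and 1.00 (SE 0.10) in KO clones, or 2.08-fold and 1.99-fold. In KO2 alone, the log2FC was 0.79 (SE 0.09), a 1.73-fold increase, and the 3 IFNG libraries of that clone spread from 24.3 to 31.8 CPM. Uba7 shares 233 exon bases with Gm20661 on the same strand.

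**Figure D1:**
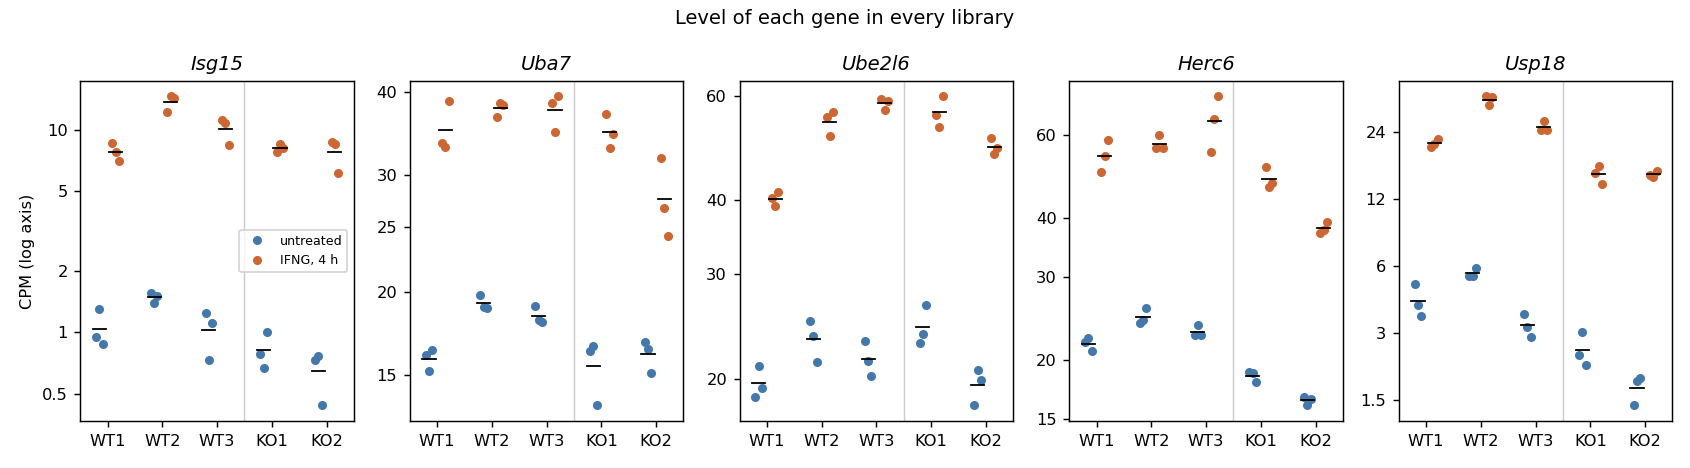
CPM (log axis) of the 5 genes in all 30 libraries, by clone, with blue points for untreated and orange points for IFNG-treated libraries and a black line at the mean of 3 libraries. Every IFNG library lies above every untreated library in each panel, and the KO clones lie lowest for Usp18 after IFNG and for untreated Herc6.

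Levels were then compared between genes as RPKM, the CPM per kilobase of exon. Annotated exon lengths ran from 756 bases for Isg15 to 9292 for Herc6, and the order between genes rests on them. In CPM without length, Isg15 and Usp18 had the lowest means of the 5 genes in both conditions. Untreated, Ube2l6 was the most abundant, with a median of 10.7 RPKM over 15 libraries, followed by Uba7 at 2.48, Herc6 at 2.35, Isg15 at 1.25 and Usp18 at 1.15 RPKM. Uba7 and Herc6 were close, although Uba7 was higher in 14 of 15 libraries. Isg15 and Usp18 were not separated, with Isg15 higher in 8 of 15. After IFNG the order changed. Ube2l6 was still first at 26.7 RPKM, Isg15 came second at 11.2, then Usp18 at 7.59, Herc6 at 5.82 and Uba7 at 5.20 RPKM. Isg15 was above Usp18 in all 15 treated libraries, Usp18 above Herc6 in 14 and Herc6 above Uba7 in 12. In KO1 the last 3 genes were close, at median values of 5.61 for Usp18, 5.16 for Uba7 and 5.11 RPKM for Herc6.

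The make-up of the set shifted in the same way. Isg15 took 7.17% ± 1.80 (SD, n = 15) of the summed RPKM of the 5 genes in untreated libraries and 21.7% ± 3.12 after IFNG. Usp18 took 6.66% ± 2.33 and then 13.7% ± 2.83. The share of Ube2l6 went from 59.8% ± 4.66 to 45.6% ± 5.26. Ube2l6 RNA was 8.26 times that of Isg15 per exon length in untreated cells (median of 15 libraries) and 2.15 times after IFNG.

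**Figure D2:**
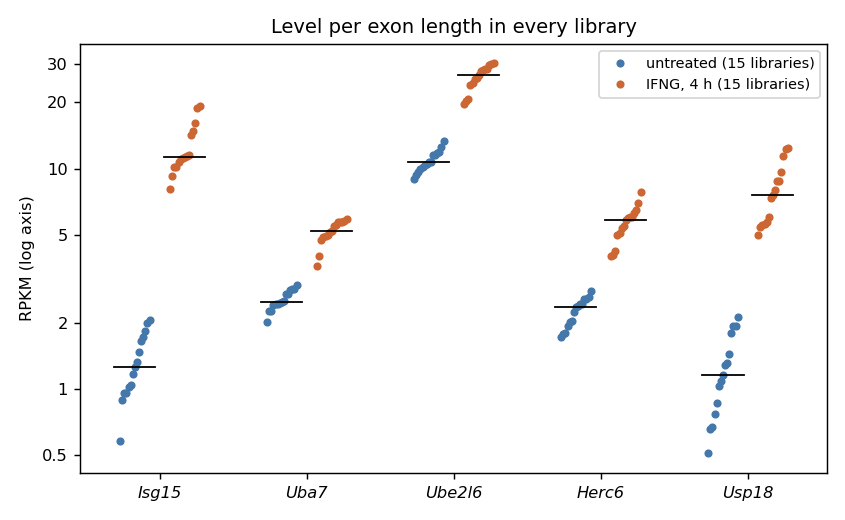
RPKM (log axis) of the 5 genes in the 15 untreated (blue) and 15 IFNG-treated (orange) libraries, sorted within each group, with a black line at the median. Isg15 and Usp18 are the lowest genes in untreated libraries, at medians of 1.25 and 1.15 RPKM, and rank just below Ube2l6 after IFNG, at 11.2 and 7.59 RPKM.

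Deletion of the element was next examined for an effect on the levels of the 5 genes. In untreated cells, Isg15, Usp18 and Herc6 were lower in KO than in WT clones and none was higher, where 14.4% of all tested genes were lower. Usp18 had the largest difference, with a log2FC of -1.04 (SE 0.19, adjusted p = 0.00069). Isg15 was at -0.69 (SE 0.20, adjusted p = 0.015) and Herc6 at -0.41 (SE 0.05, adjusted p = 3.2e-05). Uba7 was at -0.18 (SE 0.07, adjusted p = 0.059), and Ube2l6 at 0.03 (SE 0.08), with a 95% interval from -0.13 to 0.19. After IFNG, Usp18 (-0.78, SE 0.12, adjusted p = 0.00021), Herc6 (-0.44, SE 0.09, adjusted p = 0.0019) and Uba7 (-0.23, SE 0.08, adjusted p = 0.0499) were lower in KO, against 13% of all tested genes. Isg15 had a log2FC of -0.40 (SE 0.16, adjusted p = 0.081) and Ube2l6 of 0.05 (SE 0.10).

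These calls treat libraries as replicates. With counts summed per clone, which leaves 3 WT and 2 KO values, none of the 5 genes passed in either condition, and for Usp18 the adjusted p-values were 0.33 untreated and 0.29 after IFNG. The call for Usp18 held when any 1 clone was left out, and that for untreated Herc6 as well. The untreated call for Isg15 was lost without KO2 (adjusted p = 0.13) or WT2 (0.087), and Isg15 after IFNG passed without WT1 (0.0015). Herc6 after IFNG did not pass without KO2 (0.060), Uba7 after IFNG did not pass without KO2 (0.51), WT2 (0.14) or WT3 (0.12), and untreated Uba7 passed without WT1 (0.0018).

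Usp18 and Herc6 both lie on chromosome 6, where other genes were lower in the KO clones too. Over the 413 tested chromosome 6 genes that did not respond to IFNG in pooled WT or pooled KO, the median log2FC of untreated KO against WT was -0.24, and 326 of them were below 0. This was the lowest of 21 chromosome medians, the other 20 lying between -0.16 and 0.20. Within 5 Mb of Herc6, 19 such genes had a median of -0.32, and 5 of them were as low as Herc6 itself. Within 5 Mb of Usp18, 55 such genes had a median of -0.30, and 1 was as low as Usp18, whose log2FC was 0.73 below that median. After IFNG, the medians were -0.31 around Herc6 and -0.28 around Usp18, and 4 of 19 and 5 of 55 genes were as low as the named gene.

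The chromosome 6 shift was present in all 6 pairings of a KO with a WT clone, where the untreated medians ran from -0.28 to -0.18. In the 4 pairings within a genotype they ran from -0.04 to 0.03. Nearer to Usp18, the 55 genes within 5 Mb also shifted within WT. Their untreated median log2FC against WT1 was -0.14 in WT2 and -0.13 in WT3. It was 0.01 for WT3 against WT2 and -0.05 for KO2 against KO1. The median log2FC of the 413 chromosome 6 genes in the genotype by IFNG interaction was -0.0065. The part of the chromosome 6 shift in the levels of Usp18 and Herc6 was not tested. No such median shift was seen around the other members in untreated KO against WT. There the genes within 5 Mb of Isg15, Uba7 and Ube2l6 had median log2FC values of -0.01, 0.03 and 0.01. Between single clones, the 17 such genes around Ube2l6 did shift against WT1. Their untreated median log2FC against WT1 was 0.44 in WT2, 0.32 in WT3, 0.22 in KO1 and 0.35 in KO2. After IFNG, these medians were 0.46, 0.34, 0.30 and 0.46. The part of this shift in the low Ube2l6 level of WT1 after IFNG was not tested.

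**Figure D3:**
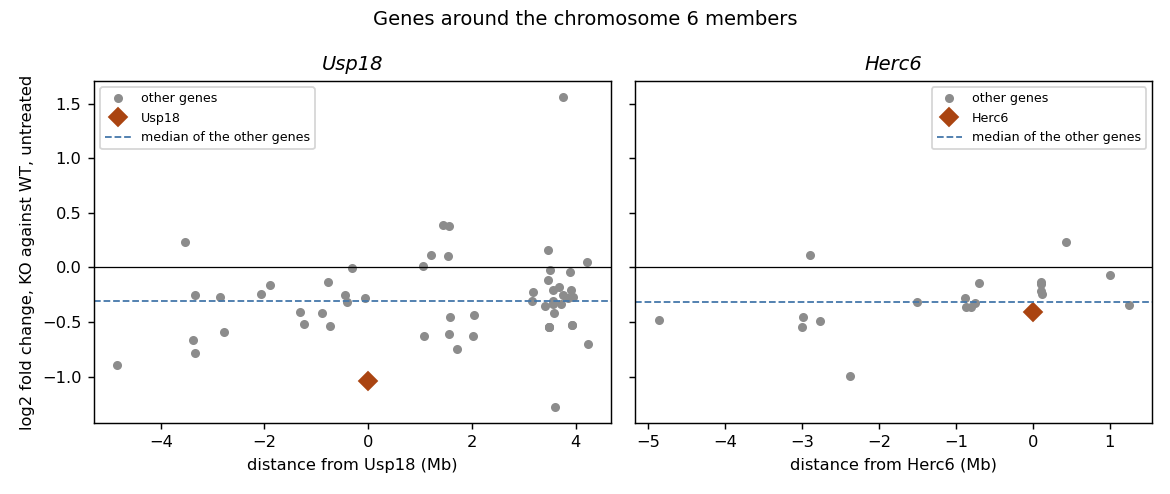
log2FC of untreated KO against WT libraries for Usp18 (left) and Herc6 (right, both as diamonds) and for other tested genes within 5 Mb that did not respond to IFNG (grey points), against distance in Mb, with a dashed line at the median of the grey points. Herc6, at -0.41, lies below the median of its 19 neighbors (-0.32), at their lower quartile (-0.41). Usp18, at -1.04, lies below all but 1 of its 55 neighbors.

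Whether the deletion altered the response itself was tested as a genotype by IFNG interaction over all 30 libraries. None of the 5 genes passed in edgeR or in DESeq2, and none had an unadjusted p-value under 0.05 in edgeR, where 1.02% of all tested genes were called. The responses in KO clones differed from those in WT clones by a log2FC of 0.33 (SE 0.20, adjusted p = 0.67) for Isg15 and 0.27 (SE 0.14, adjusted p = 0.56) for Usp18, with 95% intervals from -0.06 to 0.71 and from -0.0023 to 0.54. For the 3 conjugating enzymes the differences lay between -0.07 for Uba7 and 0.04 for Ube2l6. With the clone as the unit, the mean Usp18 response was 2.63 in the WT clones and 2.91 in the KO clones (exact permutation test over 10 splits, 2-sided, p = 0.4). For Isg15 the means were 3.13 and 3.47 (p = 0.2 in the same exact test). The smallest p-value that this exact test can give is 0.1.

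Clones differed from one another within as well as between genotypes. The untreated level and the IFNG level of all 5 genes differed among the 5 clones (F test with 4 degrees of freedom), as did those of 70.8% and 71.5% of all tested genes. For Usp18, the untreated mean ran from 5.57 ± 0.292 CPM in WT2 through 4.21 ± 0.721 in WT1, 3.25 ± 0.386 in WT3 and 2.53 ± 0.456 in KO1 to 1.71 ± 0.251 CPM in KO2 (SD, n = 3 each). All 10 pairs of clones differed for untreated Usp18, where 6.47% to 48.7% of all tested genes differed between a pair. After IFNG, 9 of 10 pairs differed, where 9.53% to 51.1% of all genes differed between a pair, and KO1 and KO2 were level at 15.5 ± 1.46 and 15.5 ± 0.419 CPM. The ratio of the highest to the lowest clone mean of Usp18 was 3.26 untreated and 2.16 after IFNG. For Isg15 this ratio was 2.31 and 1.77, with 3 of 10 pairs different untreated and 7 of 10 after IFNG. For Herc6 the ratio was 1.502 and then 1.69, for Ube2l6 1.25 and 1.45, and for Uba7 1.24 and 1.37. The ratio was smaller after IFNG for Isg15 and Usp18 and larger for the other 3 genes, which was not tested.

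Of the 5 genes, the response of Usp18 alone differed among clones (adjusted p = 0.0085), where 3.68% of all tested genes did. Its log2FC was 2.34 (SE 0.12) in WT1, 2.61 (SE 0.08) in WT2, 2.95 (SE 0.10) in WT3, 2.64 (SE 0.13) in KO1 and 3.17 (SE 0.11) in KO2. In the fit over all libraries, 2 of 10 pairs passed, WT3 against WT1 with a difference of 0.59 (SE 0.15, adjusted p = 0.029) and KO2 against WT1 with 0.82 (SE 0.17, adjusted p = 0.012), where 2.51% and 0.303% of all genes passed. Both pairs include WT1, and 1 of them lies within the WT clones. For Ube2l6 the F test gave an adjusted p of 0.071 and 1 pair passed, again WT3 against WT1, with a difference of 0.39 (SE 0.09, adjusted p = 0.014). The Isg15 log2FC ran from 2.87 (SE 0.17) in WT1 to 3.61 (SE 0.20) in KO2, and no pair passed. Herc6 ran from 1.21 in KO2 to 1.49 in WT3 and Uba7 from 0.79 in KO2 to 1.21 in KO1, also with no pair past the threshold.

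**Figure D4:**
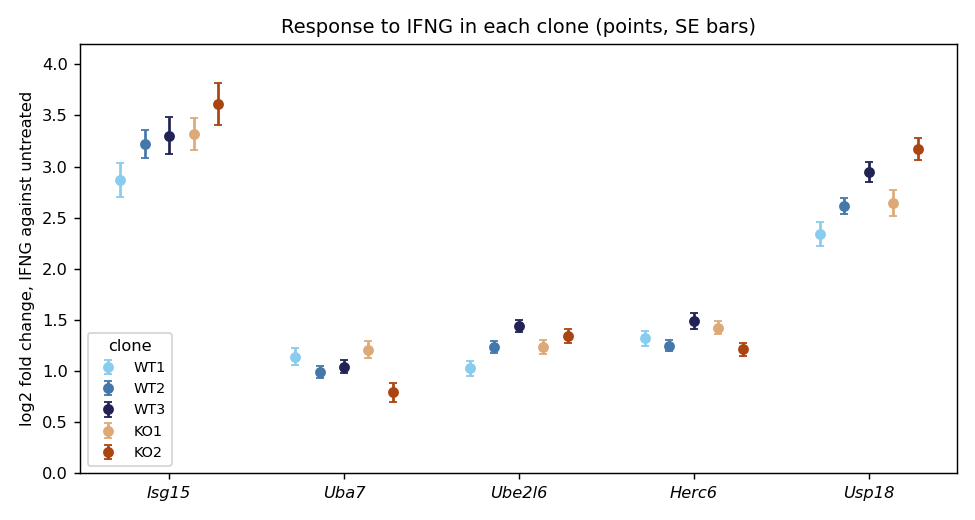
log2FC of IFNG against untreated libraries for each gene and clone, from a separate fit in each clone, with bars of 1 SE. Isg15 and Usp18 lie between 2.34 and 3.61 in all clones, and the other 3 genes between 0.79 and 1.49. The Usp18 points are spread most clearly, from WT1 (2.34) to KO2 (3.17).

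Genes with the most similar profile over the 10 clone and treatment groups were sought by the root mean square (RMS) difference of centered mean log2(CPM + 0.5), among 12993 genes. The groups share libraries of 5 clones, and the values are descriptions. The added 0.5 shrinks changes that start near or below 1 CPM, as for untreated Isg15 (mean 1.00 CPM) and Ifit3 (0.343 CPM). It hardly alters those of genes such as Fcgr4, with means of 43.7 CPM untreated and 278 CPM after IFNG. A small RMS difference, also between Isg15 and Usp18, therefore does not mean an equal fold change. For Isg15 the nearest genes were H2-T24 (0.19), Ifit3 (0.19), an interferon-induced antiviral gene, and Fcgr4 (0.19), an Fc receptor. For Usp18 they were Irf7 (0.24), a transcription factor of the interferon response, Xaf1 (0.29) and Ifit3 (0.30). Isg15 and Usp18 were themselves 0.24 apart, and Uba7 and Herc6 0.20. For Herc6 the nearest was Gm45193 (0.07), with which it shares exon bases, followed by Mitd1 (0.13) and Oas3 (0.14), an antiviral enzyme. Uba7 was nearest to Mob3c (0.10), Ripk1 (0.11) and Mafk (0.12), and Ube2l6 to Tor3a (0.11), Tceanc2 (0.12) and Znfx1 (0.13).

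Among other genes linked to ISG15, most did not pass the test. Of 14 such genes (E2 and E3 enzymes, proteases reported to act on ISG15, the ISG15 receptor chains Itgal and Itgb2), 13 were tested, 4 rose and 1 fell in WT, and 5 rose and 1 fell in KO clones. Of all tested genes, 14.8% rose and 13.9% fell in WT, and 15.8% rose and 14.8% fell in KO. The median log2FC was -0.02 in WT and 0.03 in KO, beside 0.00 over all genes in each. In WT, Usp21, a deubiquitinase, rose by 0.90 (SE 0.06) from 33.7 ± 3.46 to 62.5 ± 5.17 CPM, Trim25, an E3 ligase that acts in RNA sensing, by 0.54 (SE 0.10) and Arih1, an E3 ligase, by 0.37 (SE 0.04). Skp2, an F-box protein, was at -0.49 (SE 0.07). None of the 13 had an interaction.

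Relatives of the members in other modifier systems had a median log2FC of 0.00 in WT and 0.06 in KO. Of 14 relatives, 2 rose and none fell in WT, and 2 rose and 1 fell in KO, and the 2 that rose are a share near that of all tested genes (14.8% in WT and 15.8% in KO). The 2 that rose in WT were Herc4 (0.39, SE 0.04), a HERC family ligase, and Nae1 (0.36, SE 0.05), a subunit of the Nedd8 E1. Ube2l3, the closest E2 relative of Ube2l6, had a log2FC of 0.04 (SE 0.05, adjusted p = 0.65) and Uba1, the main ubiquitin E1, of 0.00 (SE 0.04).

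Among 14 other ubiquitin-like modifiers and ubiquitin genes, 3 of 13 tested rose and none fell in WT, where 14.8% of all tested genes rose and 13.9% fell. Among the 3 were Ufm1 (0.29, SE 0.07) and Atg12 (0.23, SE 0.05). In KO, 3 of 14 rose and 1 fell, where 15.8% of all tested genes rose and 14.8% fell. A gene named after its values were seen is Ubd, the cytokine-inducible modifier FAT10, which is among the 3 that rose in KO. It had 0 counts in all 15 untreated libraries, and 2 to 53 counts per library in WT and 26 to 66 in KO after IFNG. Ubd thus passed the count filter in KO only through the IFNG libraries, and its call there is not a test of a rise. In WT it did not pass the filter. Mean levels after IFNG were 0.883 ± 0.853 CPM in WT and 1.74 ± 0.715 CPM in KO. Against a floor of 3 counts over the untreated libraries of a genotype, these means were at least 61.4-fold higher in WT and 92.5-fold higher in KO. The bounds are for the means and do not hold for each WT library, where counts went down to 2.

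Of 12 interferon receptor and signaling genes, 7 rose, 3 fell and 2 did not pass in WT, and the counts were the same in KO. Of all tested genes, 14.8% rose and 13.9% fell in WT, and 15.8% rose and 14.8% fell in KO. The median log2FC was 0.38 in WT and 0.52 in KO. In WT, Irf1 rose by 5.10 (SE 0.07), Irf7 by 2.81 (SE 0.15) and Stat2 by 2.71 (SE 0.07), and all 3 are transcription factors of the interferon response. The 3 that fell in WT, named with the next 2 genes after their values were seen, are receptor chains, Ifnar1 (-0.64, SE 0.08), Ifngr1 (-0.58, SE 0.08) and Ifngr2 (-0.54, SE 0.05). Ifnar2 was at 0.06 (SE 0.09, adjusted p = 0.73) and the kinase Tyk2 at 0.07 (SE 0.04, adjusted p = 0.30). In untreated cells, 6 of the 12 were lower in KO than in WT and 1 was higher, where 14.4% and 12.2% of all tested genes were, with Irf7 at -0.90 (SE 0.16). After IFNG, 3 were lower and 2 higher, where 13% and 10.9% of all tested genes were. These KO against WT calls, that of Irf7 included, treat libraries of 3 WT and 2 KO clones as replicates. No result with the clone as the unit is given for them.

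In the interaction, 3 of these 12 genes had a larger log2FC in KO, where 0.681% of all tested genes did. Among them were Irf9 (0.35, SE 0.07, adjusted p = 0.0068), a DNA-binding partner of Stat2, and Ifngr2 (0.30, SE 0.07, adjusted p = 0.014), a chain of the IFNG receptor, which fell by 0.23 on the log2 scale in KO. When each clone was left out in turn, Ifngr2 passed in 2 and Irf9 in 3 of 5 fits, both passing without WT1 and neither without WT2 or KO1. With counts summed per clone neither passed (adjusted p = 0.76 for Ifngr2 and 0.69 for Irf9).

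**Figure D5:**
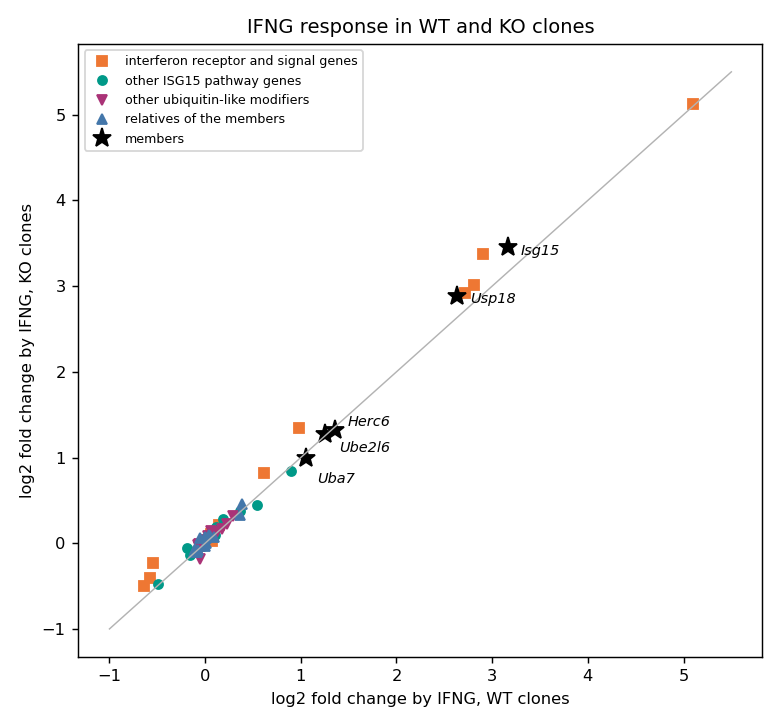
log2FC after IFNG in KO clones against that in WT clones for the 5 members (stars) and the genes of the 4 related groups that were tested in both, with a grey line of equality. Isg15 and Usp18 lie beside the interferon signaling genes, at 3.16 and 2.63 in WT, and the other 3 members at 1.05 to 1.35, while relatives and other modifiers lie near 0.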

How the data were processed

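Polyadenylated RNA of 30 J774A.1 libraries was sequenced as paired ends. Reads were trimmed (BBDuk) and aligned to mm10 (HISAT2 2.1.0) by the authors, who then merged technical replicates with SAMtools 1.10 and counted unique fragments over exons in reversely stranded mode with featureCounts 1.6.2. The deposited values are raw counts per gene with exon lengths. The file header names Gencode vM18 and the methods a RefSeq annotation. Fragments over 2 genes were counted for both, so overlapping genes share counts. All values here come from the table of 30 libraries, and 5 single-clone tables held the same counts in all 30 columns. The other tables repeat these libraries in other groupings and were not used. Columns of WT2 and WT3 carry other clone names and were matched through the tables titled for these clones. Labels mention 2 RNA input amounts and 2 adapter kinds without assigning them, so their part could not be tested.

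Counts were fitted with edgeR 4.0.16 in R 4.3.3 (filterByExpr, TMM, quasi-likelihood test, Benjamini-Hochberg adjustment over all genes, threshold 0.05), within clones, over pooled WT or KO libraries, between genotypes, as an interaction with terms for clone, and over the 10 groups for clone differences. Each SE was derived from the size of the log2FC and its F statistic (log2FC over the root of F), and 95% intervals are the log2FC ± 1.96 SE. CPM used TMM factors. At 15566122 to 37992642 counts per library (median 23682133.5), untreated Isg15 had at most 39 counts, which limits its precision. The scripts were tested on simulated data.

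The members, the related gene groups and the tests were chosen with earlier results of these data known. Genes named from a group were up to 4 called genes with the largest absolute log2FC in pooled WT and any gene called in the interaction. Some genes that this rule names are not reported here. The nearest 3 genes by RMS difference had at least 1 CPM in some group. Other genes named are said to be so or serve as a comparison. The surroundings on the chromosome were examined after the genotype comparison was seen. Alternatives were DESeq2 1.42.0, RLE normalization, no count filter, at least 10 counts in every library, thinning to 15566122 counts, a log2FC of at least 1, counts summed per clone, a clone block, contrasts from 1 fit to all libraries, omission of each clone or library in turn, and a pseudocount of 1. Promoter windows came from RefSeq (GRCm38.p6), in which 4 of the 5 genes matched. Figures were made with matplotlib 3.10.9.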

Additional observations from a re-analysis of the deposited data

Results flagged for a closer look

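In the group of 6 IFNG-treated KO libraries, Isg15 in 1 KO2 library stood apart, at 6.09 CPM where the other 5 lay between 7.72 and 8.71 CPM. The gap was 0.661 of the range of log2(CPM + 0.5). In all, 25 groups were examined this way, and chance marks about 1 in 20 of them. The library had 122 Isg15 counts. Without it, the log2FC of Isg15 after IFNG in KO2 was 3.74, beside 3.61 with all 6 libraries of that clone.

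The response of Usp18 to IFNG differed among the 5 clones (edgeR F test over all 30 libraries, adjusted p = 0.00849), from a log2FC of 2.34 in WT1 to 3.17 in KO2. The clone with the lowest untreated mean, KO2, had the largest response, but the other clones did not follow such an order. WT2, with the highest untreated mean (5.57 CPM), had a log2FC of 2.61, above that of WT1 (4.21 CPM). KO1, at 2.53 CPM untreated, had a log2FC of 2.64, below the 2.95 of WT3 (3.25 CPM). The log2FC is taken over the untreated level and is not independent of it. The difference between the KO and WT clones as groups did not pass the interaction test.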

How the results depend on the processing

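No paired analysis was possible because the columns carry no replicate number. The rise after IFNG in each clone, in pooled WT and in pooled KO was called for all 5 members under every alternative but the demand for a log2FC of at least 1, which removed Uba7 in WT2 and KO2 and in pooled KO. Differences in level among clones held for all 5 under every alternative run. Of members different between KO and WT, 3 untreated became 0 with counts summed per clone and 1 with a log2FC of at least 1, and 3 after IFNG became 0 under either setting. Leaving out 1 clone gave 2 to 4 untreated and 1 to 4 after IFNG, the lowest without KO2. The response differed among clones for 2 members instead of 1 with DESeq2, RLE normalization or no count filter (Ube2l6 added), and for 1 to 2 when 1 library was left out. Leaving out 1 clone turned directions of differences that were not called. The interaction ranged from -0.14 to 0.045 for Herc6, from -0.27 to 0.12 for Uba7, from -0.050 to 0.15 for Ube2l6 and from -0.0021 to 0.56 for Usp18, and KO against WT for Ube2l6 from -0.14 to 0.18 untreated and from -0.10 to 0.16 after IFNG. The causes were not tested. Taking responses from the fit over all libraries, an alternative chosen after seeing the data, left every direction of the clone comparison as it was. Low counts limit untreated Isg15 most.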
